A study of Homo sapiens with 3 samples.

Results

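The genes described here encode the constitutive subunits of the proteasome. They were the 31 listed PSMA, PSMB, PSMC and PSMD genes out of 19225 genes in the deposited table, 14 of the core particle and 17 of the regulatory particle. All 31 had a row. RNA came from 5637, an established bladder cancer line of human origin, with its genotype labelled WT, and was sequenced as 3 libraries. The cells had been transfected with siRNA by a lipid reagent. The control siRNA (siNC) gave 1 library, and siRNA against CDCA3, a cell division cycle associated gene, gave 2, numbered siCDCA3-1 and siCDCA3-2. The labels do not say whether those numbers stand for different siRNA sequences or for repeated cultures, so p-values measure only the spread between these libraries, which may be technical. The series was designed to look for genes downstream of CDCA3.

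The proteasome degrades proteins that carry ubiquitin chains. Its core particle is a barrel of stacked rings: outer rings of alpha subunits (PSMA genes), which gate the entry, and inner rings of beta subunits (PSMB genes), among which PSMB5, PSMB6 and PSMB7 carry the active sites. The regulatory particle caps the barrel. It has a base, with a ring of ATPases (PSMC genes) that unfold substrates, and a lid (most PSMD genes) that holds the enzyme removing ubiquitin. Cells adjust the subunit genes together through the transcription factor NFE2L1, which is known to bind antioxidant response elements in their promoters.

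The gene-level counts totalled 50912733 for siNC, 40420563 for siCDCA3-1 and 62389922 for siCDCA3-2. CDCA3 itself was at 5.52 RPKM in siNC, at 0.574 in siCDCA3-1 and at 1.398 in siCDCA3-2. RPKM is the read count scaled by transcript length and library total. Levels below stand in the order siNC, siCDCA3-1, siCDCA3-2. The target was lower in both siCDCA3 libraries, at 10.4% and 25.3% of siNC. All 9 epithelial and urothelial markers checked had an RPKM of at least 1 in every library, with summed levels of 2611, 2199 and 1790 RPKM. The 5 leukocyte markers summed to between 1.401 and 2.70 RPKM, and the highest level of PTPRC or CD3E in any library was 0.0206. Of the fibroblast markers COL1A1 had RPKM of 6.96, 8.33 and 2.26, while the highest level of COL1A2 or DCN was 0.0671, and the 3 endothelial markers summed to at most 0.0979. In such bulk RNA, less RNA per cell and fewer cells that hold it cannot be told apart.

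Promoter windows of the members were read from RefSeq (GRCh38.p14) to show which regulatory letters they hold. Windows were found for 26 of the 31 genes; PSMA7, PSMB1, PSMB6, PSMB7 and PSMD4 were not matched. The 250 bases before each start were searched on both strands for the antioxidant response element core TGACNNNGC, the ETS core CCGGAA and the CCAAT box. TGACNNNGC was present for 5 members (PSMA4, PSMB3, PSMC5, PSMD3 and PSMD12), or 19.2%, against 15.9% of 8066 tested genes with a window. CCGGAA was present for 11 members, or 42.3%, against 31.9%, and these were 10 of 16 regulatory but 1 of 10 core genes. CCAAT was present for 14 members, or 53.8%, against 41.9%. The other motifs showed less of a split: TGACNNNGC in 2 of 10 core and 3 of 16 regulatory genes, CCAAT in 6 of 10 and 8 of 16. Windows were missing more often for core genes, with 10 of 14 matched, than for regulatory genes, with 16 of 17. None of the shares was tested. A gene counted when any of its windows matched, with 32 windows for the 26 genes. Some matches lie within the annotated gene, before a later start. Examples are TGACNNNGC of PSMA4 and PSMC5 and CCGGAA of PSMB5, PSMC2 and PSMD6. The shares thus mix windows outside and inside the genes. The stretches below overlap no annotated exon (GENCODE v29); they run 5′ to 3′ on the gene's strand, with the match in capitals. They show the response element letters of PSMB3 (chr17:38752612-38752670, plus strand) and PSMD12 (chr17:67366709-67366767, minus strand), the ETS letters of PSMC3 (chr11:47426566-47426621, minus strand, present as the reverse complement) and PSMC6 (chr14:52707068-52707123, plus strand), and the CCAAT letters of PSMD8 (chr19:38374458-38374512, plus strand, present as the reverse complement).
PSMB3: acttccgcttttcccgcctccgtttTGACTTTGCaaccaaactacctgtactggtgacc
PSMD12: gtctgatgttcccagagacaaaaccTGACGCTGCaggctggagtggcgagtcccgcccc
PSMC3: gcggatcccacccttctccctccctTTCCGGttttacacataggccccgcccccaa
PSMC6: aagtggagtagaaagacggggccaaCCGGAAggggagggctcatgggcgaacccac
PSMD8: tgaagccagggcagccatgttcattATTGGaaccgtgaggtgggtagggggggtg

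The median level of the members was above that of all genes tested. Their median RPKM was 33.3 in siNC, 28.5 in siCDCA3-1 and 40.2 in siCDCA3-2, where the medians of the 10153 genes tested (those averaging 1 RPKM or more) were 5.55, 5.29 and 5.75. Members spanned 10.3 to 157 in siNC, 7.57 to 135 in siCDCA3-1 and 13.1 to 203 in siCDCA3-2. PSMA7 had the highest level in each library. PSMD12 had the lowest in siNC and siCDCA3-1, and PSMA5 in siCDCA3-2. The order of the members was almost the same in each pair of libraries, with Spearman correlations of 0.972 to 0.981 across the 31 genes, given as a description.

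**Figure D1:**
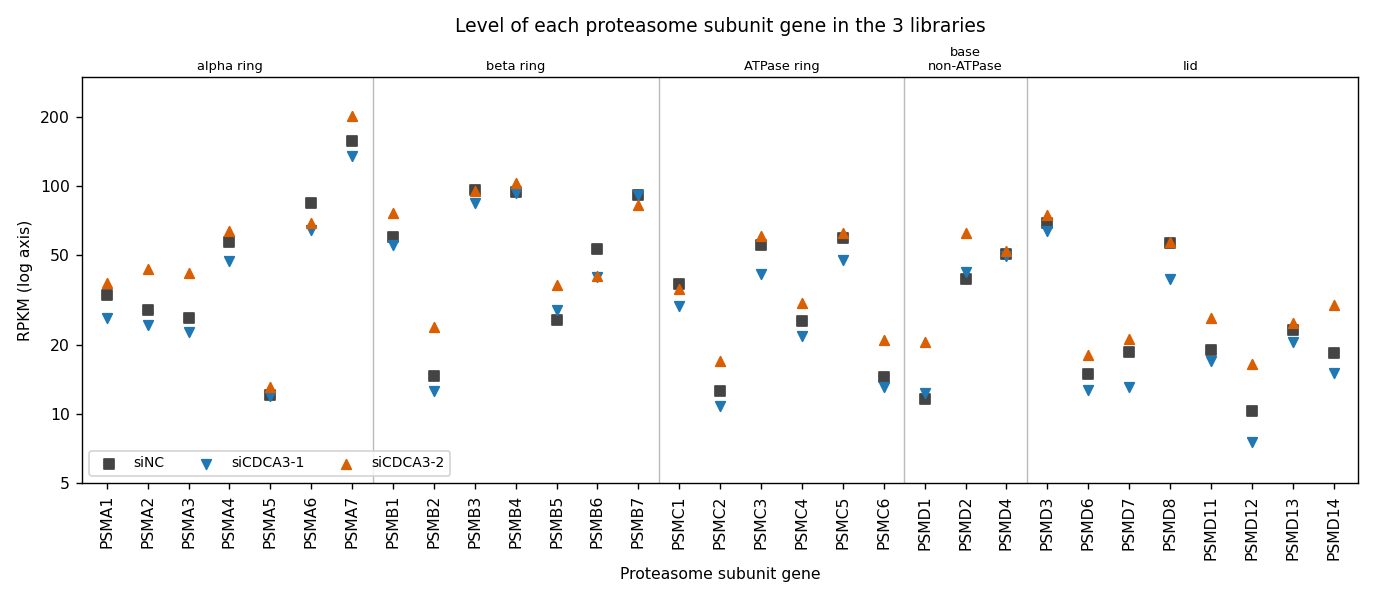
RPKM (log axis) of each of the 31 subunit genes in siNC (squares), siCDCA3-1 (downward triangles) and siCDCA3-2 (upward triangles), grouped by place in the complex. The siNC value lies between the siCDCA3 values for 23 genes, always with siCDCA3-1 below and siCDCA3-2 above.

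The comparison of siCDCA3 with siNC asks whether the subunit genes differ once CDCA3 is depleted. No member was called, in either direction, by edgeR's quasi-likelihood test (adjusted p of 0.9997 for each). Over all genes 0.0295% were called, and DESeq2, which called 0 members, called 0.0985%. Member log2 fold changes ran from -0.38 for PSMB6 to 0.49 for PSMD1, with a median of 0.048 and standard errors of 0.47 to 0.55, so that each change was smaller than its standard error. None of the 31 had an unadjusted p under 0.05 in edgeR, DESeq2 or limma. In edgeR that share was 1.32% over all genes. A high p from this test does not show that a gene stayed the same. With siNC alone in its group, the spread came from the pair of siCDCA3 libraries (1 residual degree of freedom). The siNC library was assumed to vary like them. edgeR pooled that spread over genes (common dispersion 0.126, prior degrees of freedom 12). A standard error therefore mostly reflects the genes tested as a whole, not the member's own spread.

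Taken one at a time, the siCDCA3 libraries lay on opposite sides of siNC. In siCDCA3-1 28 of 31 members were lower than in siNC, against a background of 58.6% of all genes, and 3 were higher (background 41.4%), with a median log2 ratio of -0.22 where all genes had -0.083. In siCDCA3-2 26 of 31 were higher, against a background of 54.4%, and 5 were lower (background 45.6%), with a median of 0.19 where all genes had 0.057. Both comparisons use the same siNC library. The order siCDCA3-1 below siNC below siCDCA3-2 held for 23 members, against a background of 30.8% (30.1% among genes averaging 5 RPKM or more), and the opposite order for 0, against 17.8%. Both siCDCA3 libraries were below siNC for 5 members (background 27.8%) and above it for 3 (background 23.6%). These are single libraries, and this order was not tested. Depth ran in the same order as most members, and its part in the result was not tested. Under TMM scaling, which put the all-gene medians at -0.0014 and -0.0025, the members' medians were -0.13 and 0.13, and the order held for 19 members against 23.9% of all genes, while PSMB7 and PSMD4 had the opposite order.

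Few of these differences were large. No member differed by 1.5-fold from siNC in siCDCA3-1, where 12.3% of all genes were lower and 6.72% higher by that much (10.3% and 5.02% of genes averaging 5 RPKM or more). In siCDCA3-2 7 members were at least 1.5-fold higher (PSMA2, PSMA3, PSMB2, PSMD1, PSMD2, PSMD12 and PSMD14), against 15.1% of all genes and 12.7% of those averaging 5 RPKM or more. No member was 1.5-fold lower there, against 13.6% and 12.8%. Of the 7 higher members PSMA2 was just past that size, at 150.5% of siNC (counting interval 145.7% to 155.6%). Under TMM scaling 6 members were past it, and the share of all genes was not counted. The members were also less scattered than all genes tested, a background not matched for level. In siNC the median level was 33.3 RPKM in the members and 5.55 in all genes. The interquartile range of their log2 ratios was 0.20 in siCDCA3-1 and 0.44 in siCDCA3-2, where all genes had 0.54 and 0.71.

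**Figure D2:**
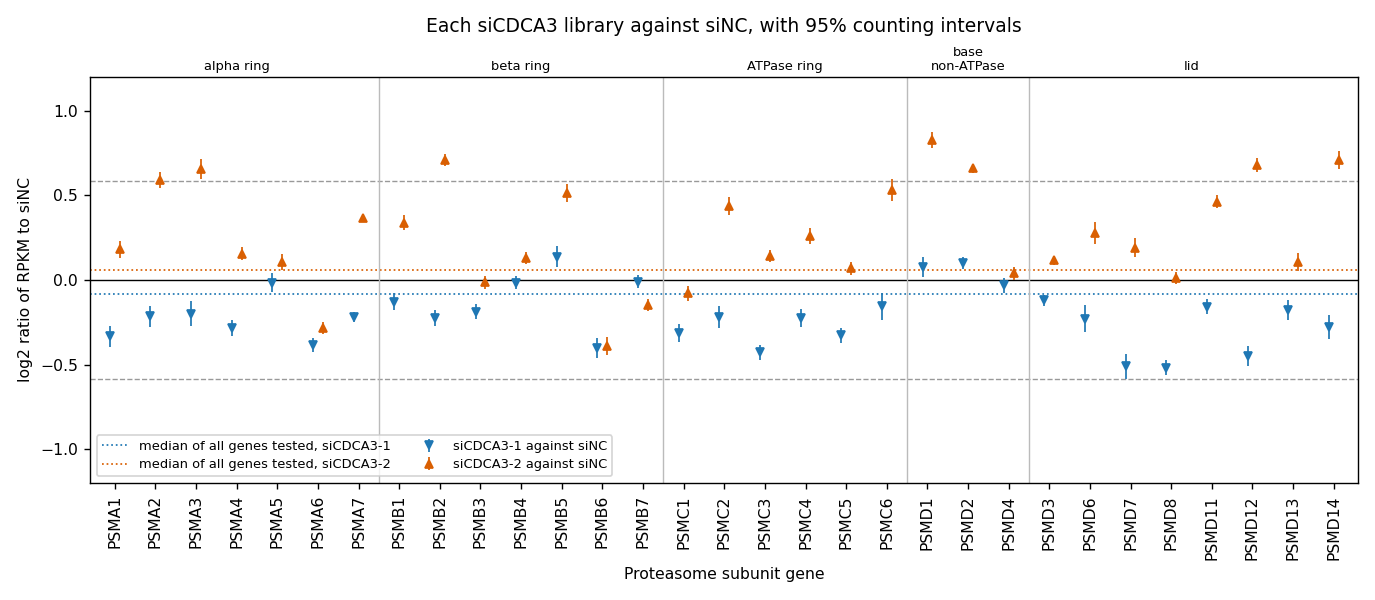
Log2 ratio of RPKM to siNC for each subunit gene in siCDCA3-1 (downward triangles) and siCDCA3-2 (upward triangles), with 95% intervals that cover counting error only. Dotted lines are the medians of all genes tested and dashed lines mark 1.5-fold. All 8 lid genes have siCDCA3-1 below and siCDCA3-2 above the zero line (7 of 8 under TMM scaling, where PSMD8 is below in both), while PSMA6, PSMB3, PSMB6, PSMB7 and PSMC1 have both points below it.

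Set against each other, the siCDCA3 libraries had the larger median ratio. In siCDCA3-2 30 of 31 members were higher than in siCDCA3-1 (background 57.8%), and 11 were at least 1.5-fold higher (background 23.7%, or 21.1% among genes averaging 5 RPKM or more). The median log2 ratio was 0.51 where all genes had 0.12. Under TMM scaling it was 0.37, with 26 members higher, against 4947 of all 10153 genes tested. Under that scaling 6 members were at 1.5-fold, and the share of all genes at that size was not counted. PSMB7 was the single member with a lower RPKM in siCDCA3-2 than in siCDCA3-1. In RPKM, the summed level of the 31 genes was 1369.8 in siNC, 1194 in siCDCA3-1 and 1559.5 in siCDCA3-2.

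**Figure D3:**
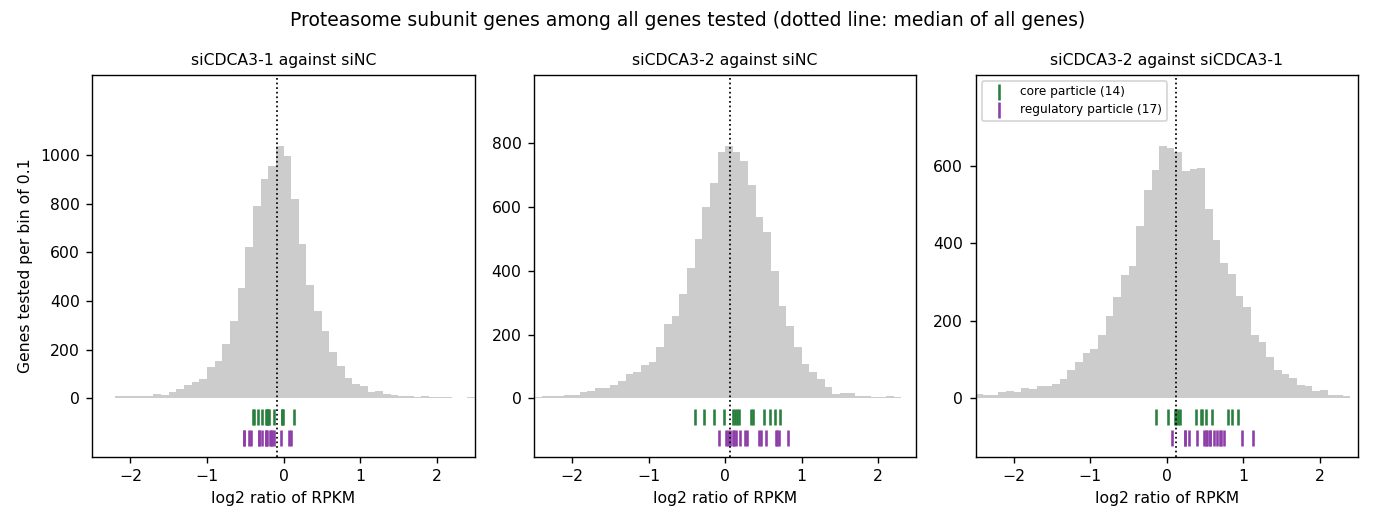
Histograms of the log2 ratio of RPKM over the 10153 genes tested, for each pair of libraries, within -2.5 to 2.5. Ticks under each histogram are the 14 core and 17 regulatory genes and the dotted line is the all-gene median. Ticks lie mostly to the left of the line in the first panel and to the right in the other panels.

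Among the alpha subunits, which form the gated outer rings, all 7 were lower in siCDCA3-1 than in siNC (6 under TMM scaling, where PSMA5 was higher) and 6 of 7 were higher in siCDCA3-2. PSMA3 (GRCh38 chromosome 14, 58244843 to 58272004) had RPKM of 26.4, 23.0 and 41.5. In siCDCA3-1 it stood at 87.2% of siNC, with a 95% counting interval of 82.7% to 91.8%. In siCDCA3-2 it stood at 157% (151% to 164%). PSMA2 was similar, with 28.6, 24.7 and 43.1. For PSMA7, the most abundant member, the values were 157, 135 and 203. PSMA1 had 33.3, 26.4 and 37.7, and PSMA4 had 57.0, 46.8 and 63.5. In these 5 genes siCDCA3-1 was the lowest library and siCDCA3-2 the highest. PSMA5 had 12.2, 12.05 and 13.1, the smallest steps of the ring. PSMA6 stood apart with 83.9 in siNC and 64.2 and 69.0 in the siCDCA3 libraries, lower in both. An annotated gene shares exon sequence on the same strand with PSMA6, PSMA1 and PSMA2, so reads of these 3 genes may be shared.

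Of the beta subunits, which form the inner rings, 3 of 7 had the order siCDCA3-1 below siNC below siCDCA3-2, and PSMB4 left it under TMM scaling. PSMB2 (GRCh38 chromosome 1, 35599541 to 35641526), a beta subunit without an active site, had RPKM of 14.7, 12.6 and 24.1. Its siCDCA3-2 level was 164% of siNC (159.6% to 168%). PSMB1, also without one, had 60.0, 54.9 and 75.9. PSMB4 had 94.5, 93.5 and 103, and PSMB3 had 96.2, 84.5 and 95.2. In siCDCA3-2 PSMB4 was at 109% of siNC and PSMB3 at 99.0%.

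Of the 3 catalytic subunits, 1 was above siNC in both siCDCA3 libraries and 2 were below it in both. PSMB5, which carries the chymotrypsin-like site that proteasome inhibitor drugs target, had RPKM of 25.9, 28.5 and 37.0, higher in both siCDCA3 libraries than in siNC. PSMB6, the caspase-like subunit (GRCh38 chromosome 17, 4796164 to 4798495), had 52.7, 39.9 and 40.2. It was the member lowest relative to siNC over the siCDCA3 libraries, at 75.6% (72.5% to 78.8%) and 76.3% (73.6% to 79.1%). PSMB7, the trypsin-like subunit, had 91.6, 90.9 and 82.7. It was at 99.2% of siNC in siCDCA3-1, where the counting interval (96.6% to 101.9%) held 100% and TMM scaling put it above siNC, and at 90.3% (88.1% to 92.6%) in siCDCA3-2. The edgeR log2 fold changes were 0.34 ± 0.49 for PSMB5, -0.38 ± 0.47 for PSMB6 and -0.061 ± 0.50 for PSMB7 (SE), each with an adjusted p of 0.9997.

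The 6 ATPase genes were all lower in siCDCA3-1 than in siNC, and 5 of 6 were higher in siCDCA3-2. They encode the motor ring that unfolds substrates and opens the gate. PSMC2 had RPKM of 12.7, 10.9 and 17.1, and PSMC6 had 14.6, 13.1 and 21.1. PSMC3 had 55.0, 40.9 and 60.6, at 74.4% of siNC in siCDCA3-1 (72.2% to 76.7%). PSMC4 had 25.7, 21.997 and 30.8. In these 4 genes the siNC level lay between the others. PSMC5 had 59.4, 47.4 and 62.3, so that siNC and siCDCA3-2 were close. PSMC1 had 37.1, 29.9 and 35.2, lower in both, and its reads may be shared with its pseudogenes, of which 13 carry its name in GENCODE v29.

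In the base, the scaffold genes PSMD1 and PSMD2, which also bind ubiquitin receptors, were the exceptions in siCDCA3-1. PSMD1 (GRCh38 chromosome 2, 231056867 to 231172827) had RPKM of 11.7, 12.4 and 20.8. Its siCDCA3-2 level, 177% of siNC (171% to 183%), was the highest ratio to siNC of any member. PSMD2 had 39.2, 42.1 and 61.9. Both were above siNC in both siCDCA3 libraries, as was PSMB5 but no other member under the deposited scaling. PSMD4, a ubiquitin receptor, had 50.4, 49.4 and 51.8, and its counting interval held 100% of siNC in both libraries.

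On the deposited scale all 8 lid genes had the order siCDCA3-1 below siNC below siCDCA3-2. PSMD12 (GRCh38 chromosome 17, 67337916 to 67366577) had the widest gap between the siCDCA3 libraries, with RPKM of 10.3, 7.57 and 16.6. It was at 73.2% of siNC (70.3% to 76.2%) in the first siCDCA3 library and at 160.2% (155% to 165%) in the second. PSMD14 (GRCh38 chromosome 2, 161308425 to 161411717), the enzyme that cuts ubiquitin chains off substrates, had 18.5, 15.2 and 30.2, the second widest gap. PSMD7, the partner of PSMD14 without enzyme activity, had 18.7, 13.1 and 21.3. PSMD8 had 56.2, 39.2 and 56.5, the lowest member in siCDCA3-1 at 69.8% of siNC (67.7% to 72.0%), while in siCDCA3-2 its interval held 100%. PSMD7 and PSMD8 thus lay farther from siNC in siCDCA3-1, and PSMD12 and PSMD14 in siCDCA3-2. The scaffold subunits PSMD6 and PSMD11 had 14.9, 12.7 and 18.1, and 19.1, 17.1 and 26.4. PSMD3 had 68.9, 63.4 and 74.7, and PSMD13 had 23.4, 20.7 and 25.2, smaller steps in the same order. Under TMM scaling PSMD8 was lower than siNC in both siCDCA3 libraries, and the order held for 7 of the 8 lid genes.

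Core and regulatory genes were compared as groups, without a test because genes are not replicates. Per length, core transcripts were the more abundant: the median RPKM was 54.9 against 23.4 in siNC, 43.3 against 20.7 in siCDCA3-1 and 53.3 against 30.2 in siCDCA3-2. The ratio of the medians was 2.35, 2.10 and 1.77 in that order, whereas the ratio of the means was 1.89, 1.96 and 1.79. Both ratios were lowest in siCDCA3-2, but they ordered siNC and siCDCA3-1 differently. In siCDCA3-1 the median log2 ratios to siNC were nearly equal, -0.21 for core and -0.23 for regulatory genes. In siCDCA3-2 they were 0.17 and 0.26, with 10 of 14 core genes and 16 of 17 regulatory genes above siNC (background 54.4%). Under TMM scaling 10 of 14 core genes and 14 of 17 regulatory genes were above siNC, against 5057 of all 10153 genes. Between the siCDCA3 libraries the core median was 0.41 and the regulatory median 0.56. The difference of these medians, -0.15, is a description with no test.

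GC content moved with the difference between the siCDCA3 libraries, both in the members and in all genes. A transcript sequence was matched for 30 of the 31 members, PSMA4 being the exception, and for 96.8% of all genes tested. The median GC content was 48.5% in the members and 50.1% in all genes. Across the 30 members the Spearman correlation of GC content with the log2 ratio of siCDCA3-2 to siCDCA3-1 was -0.43, and across all genes it was -0.41. All points share the same libraries, so the values are a description. Of all genes, those with GC content under 48.5% were higher in siCDCA3-2 in 75.6% of cases, with a median log2 ratio of 0.41, and those at or above it in 43.1%, with a median of -0.090. The 15 members of lower GC content had a median of 0.69, with 15 higher, and the 15 others had 0.28, with 14 higher. On each side the members' median thus lay above that of all genes. PSMD12, at 38.0% GC, had the highest ratio, and PSMB6 (54.5%) and PSMB7 (49.9%) had the lowest, 0.013 and -0.14. Transcript length had a correlation of 0.48 with the same ratio in the members and -0.029 in all genes. For siCDCA3-2 against siNC the correlation with GC content was -0.44 in the members and -0.39 in all genes. For siCDCA3-1 against siNC it was -0.0033 and 0.13. Of all genes under 48.5% GC, 72.0% were higher in siCDCA3-2 than in siNC, against 39.6% of the others. Of the members, 14 of 15 and 11 of 15 were higher. What part GC content, length or depth had in the result was not tested.

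**Figure D4:**
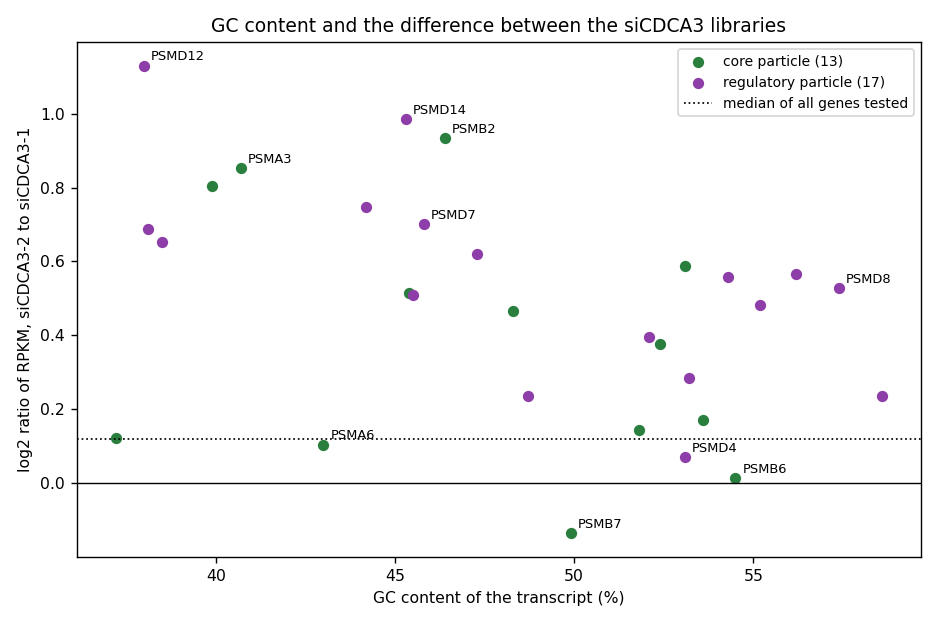
GC content (%) of the transcript of each of 30 subunit genes against its log2 ratio of RPKM in siCDCA3-2 to siCDCA3-1, for core and regulatory genes. The dotted line is the median of all genes tested (0.12). Genes with lower GC content tend to lie higher, PSMD12 at the top and PSMB7 at the bottom.

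The wider proteasome system was read from a list of 44 genes, of which 42 were tested. No gene of the list passed the edgeR test in either direction (adjusted p of 0.9997 for each), and 1, NFE2L1, had an unadjusted p under 0.05 (1.32% of all genes). In siCDCA3-1 30 of the 42 were lower than in siNC (background 58.6%), with a median log2 ratio of -0.20, or -0.11 under TMM scaling. In siCDCA3-2 26 were higher (background 54.4%), with a median of 0.077, near the 0.057 of all genes. Under TMM scaling 23 were higher, against 5057 of all 10153 genes, with a median of 0.018. NFE2L1 had RPKM of 76.6, 34.1 and 25.9, which put it at 44.5% and 33.8% of siNC. Its log2 fold change was -1.33 ± 0.51 (SE), with an unadjusted edgeR p of 0.0216. NFE2L1 was thus lower in both libraries. What part it had in the levels of the subunit genes was not tested. The related gene NFE2L2 had 16.97, 12.1 and 10.01, also lower in both siCDCA3 libraries. DDI2, the protease that activates NFE2L1, had 2.78, 3.22 and 4.78, and NGLY1, which strips its sugars, had 3.08, 2.58 and 3.62. The small MAF partners differed: MAFG had 14.1, 8.90 and 10.4, MAFF 6.16, 3.91 and 6.30, and MAFK 6.65, 4.40 and 10.3.

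All 3 immunoproteasome genes, the interferon-inducible subunits that replace the catalytic ones in newly built particles, were higher than siNC in siCDCA3-1 and lower in siCDCA3-2. That order was seen in 17.8% of all genes and in 0 of the 3 catalytic subunits, or in PSMB7 alone of them under TMM scaling. PSMB9 had RPKM of 14.8, 16.7 and 3.39, PSMB8 had 17.3, 25.8 and 12.1, and PSMB10 had 13.97, 24.8 and 7.79. Relative to the constitutive subunit it replaces, PSMB9 was at 28.03%, 42.0% and 8.42% of PSMB6. PSMB8 was at 66.75%, 90.4% and 32.7% of PSMB5, and PSMB10 at 15.3%, 27.3% and 9.42% of PSMB7. All 3 ratios were thus highest in siCDCA3-1 and lowest in siCDCA3-2. The interferon-inducible activator genes PSME1 (69.1, 72.8 and 35.1) and PSME2 (61.1, 57.7 and 35.1) were also lowest in siCDCA3-2. PSME3, the nuclear activator, had 28.9, 27.7 and 43.5, PSME4 had 7.58, 6.92 and 10.1, and the inhibitor gene PSMF1 had 9.11, 8.14 and 8.54. PSMA8 and PSMB11, the testis and thymus subunits, had at most 4 and 11 counts in any library.

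Of 9 assembly chaperone genes, 7 had the order siCDCA3-1 below siNC below siCDCA3-2, against a background of 30.8%, but 4 had it under TMM scaling, against 23.9%. POMP, which matures the core, had RPKM of 23.4, 21.9 and 44.1, and PSMG1, which starts the alpha ring, had 9.75, 4.90 and 15.2. Of 7 receptor and shuttle genes, 6 had that order under either scaling. RAD23B, a shuttle for ubiquitinated proteins, had 36.0, 12.6 and 38.0. It was thus farther below siNC in siCDCA3-1 than any subunit gene. The proteasome-bound deubiquitinases USP14 (6.64, 5.39 and 10.9) and UCHL5 (2.96, 1.96 and 4.43) also had the order siCDCA3-1, siNC, siCDCA3-2. The same order held for 1 of 6 ubiquitin and activation genes and 1 of 3 segregase genes. Among ubiquitin genes UBB had 161.6, 165 and 179.6 and RPS27A had 215, 219 and 227. Reads of ubiquitin genes can be shared because their coding sequences are near identical. VCP, the segregase that extracts ubiquitinated proteins, had 40.0, 51.6 and 35.8.

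**Figure D5:**
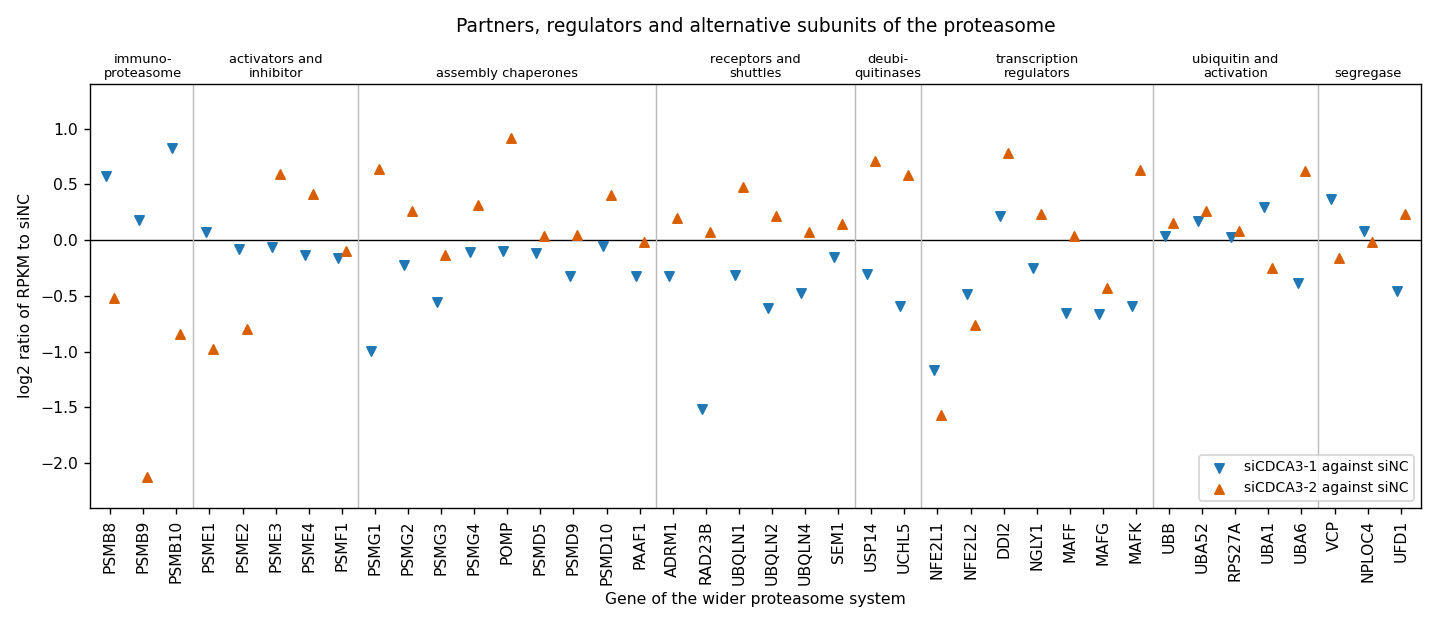
Log2 ratio of RPKM to siNC for 40 of the 42 tested genes of the wider proteasome system in siCDCA3-1 (downward triangles) and siCDCA3-2 (upward triangles), by role. NFE2L1 lies below -1 in both, the 3 immunoproteasome genes lie above 0 in siCDCA3-1 and below it in siCDCA3-2, and the 9 assembly chaperones lie below 0 in siCDCA3-1 (8 of 9 under TMM scaling).

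The direction of a ratio was the same in all transcripts of a member except for PSMA5. In the 19 members with several listed transcripts, each transcript with at least 100 counts in every library was examined. Transcripts of a gene may share reads, so their likeness is a description and not an independent check. Among ratios to siNC the widest spread was for PSMB2, whose log2 ratio of siCDCA3-2 to siNC ran from 0.71 to 0.93. PSMA5 ran from -0.016 to 0.036 in siCDCA3-1. An annotated pseudogene carries the name of 10 members, and exons of 9 members overlap a gene on the opposite strand (strand use in counting: not given in the sources used here).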

How the data were processed

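RNA from siNC (1 library) and siCDCA3 (2 libraries) was compared. Per the submitters' processing notes, the tools were Trimmomatic 0.36, FastQC, HISAT2 and HTSeq. Builds of human and mouse are both listed there without a role; 98.6% of the table's accessions matched human RefSeq. The strand setting is not stated. Per the file headers, the authors deposited a count per transcript, its length and an RPKM. As recomputed from the values, RPKM is the count over length and over a single total per library. The transcript with the most counts stood for each gene. Of 103 symbols turned into dates, 102 were restored. The 10153 genes averaging 1 RPKM or more were fitted with edgeR 4.0.16 (R 4.3.3; TMM, quasi-likelihood, two-sided, Benjamini-Hochberg, adjusted p threshold 0.05), after tests on simulated data. The simulated counts had a smaller dispersion than these data and larger changes than the members. They do not show whether changes as small as those of the members would be called. The standard error is the absolute log2 fold change over the root of F. Ratios between single libraries used RPKM as deposited with no pseudocount, exact 95% binomial intervals that cover counting error only, and 1.5-fold as the size called. GC content came from GENCODE v29 transcripts. Alternatives were DESeq2 1.42.0, limma 3.58.1, other scalings, filters, pseudocounts of 0.1, 0.5 and 1, the longest transcript, a 2-fold size and each siCDCA3 library left out. All 31 members were to be named, with CDCA3 and the wider list, of which some genes are not reported here; members, lists and motifs were chosen with earlier results of these data known.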

Additional observations from a re-analysis of the deposited data

How the results depend on the processing

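No member was called under any alternative test, scaling, filter or transcript choice, with 0 unadjusted p-values under 0.05 among the 31 in each. Over all genes, edgeR called 3, DESeq2 10, edgeR without a filter 22, and limma and the filter at a mean RPKM of at least 5 called 0 each (121 and 74 genes at an unadjusted p under 0.05). The median member log2 fold change was 0.048 and ran from -0.13 to 0.13 when each siCDCA3 library was left out (a value with no test), and it was -0.015 without a filter. The sign of 7 members changed without siCDCA3-1 and of 14 without siCDCA3-2. With TMM the member medians were -0.13 (siCDCA3-1), 0.13 (siCDCA3-2) and 0.37 (siCDCA3-2 against siCDCA3-1), and with median-of-ratios scaling -0.14, 0.14 and 0.38. Under both scalings 6 instead of 11 members were 1.5-fold apart between the siCDCA3 libraries, and 6 instead of 7 in siCDCA3-2 against siNC. The share of all genes at that size was not counted under these scalings. Pseudocounts of 0.5 and 1 RPKM also gave 6 in siCDCA3-2 against siNC. TMM also reversed the sign of PSMA5, PSMB4, PSMB7 and PSMD4 in siCDCA3-1, of PSMD4 and PSMD8 in siCDCA3-2, and of PSMA5, PSMA6, PSMB6 and PSMD4 between the siCDCA3 libraries. At 2-fold, 0 members were called in siCDCA3-2 against siNC, where 375 of all 10153 genes were higher and 576 lower. Between the siCDCA3 libraries 1 member was called, where 992 genes were higher in siCDCA3-2 and 640 lower. Without a filter, 38.1% (siCDCA3-1) and 49.0% (siCDCA3-2) of all genes were 1.5-fold from siNC, against 19.0% and 28.6%. Pseudocounts and the longest transcript changed the sign of 0 members in the ratios between libraries. No paired analysis was possible because siNC has 1 library. The lone siNC library limits the comparisons with it, and the siCDCA3 libraries were compared as 1 against 1.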
